A study of Mus musculus with 9 samples.

Results

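The genes of fatty acid uptake, oxidation and ketone body metabolism were followed in tumors grown from bEnd.3 cells under R-propranolol. The set was a fixed list of 38 gene symbols looked up in the count table, and all 38 were found among its 24421 genes. bEnd.3 is a mouse brain endothelial line immortalized with the polyoma middle T antigen, used in this study to model infantile hemangioma. It is a single line, so the tumors differ in host and treatment and not in the source of the grafted cells. Cells were inoculated into the right flank of male athymic Nu/Nu nude mice, which lack mature T cells. In the treated arm, 5 tumors came from mice given R-propranolol, the isomer of propranolol with little beta-blocking activity, at 6 mg/kg per day by intraperitoneal injection on 5 days per week. In the control arm, 4 tumors came from mice given vehicle, which was ethanol in buffered saline. The sources used here do not give the age of the mice. The labels name each library as a separate tumor, although vehicle replicates 1 and 2 have 1 mouse number between them in their titles, so p values describe the spread among these libraries.

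Long-chain fatty acids enter endothelial cells through membrane proteins such as CD36, are bound by small cytosolic carriers and are activated to acyl-CoA. Acyl-CoA is handed to carnitine by carnitine palmitoyltransferase 1 on the outer mitochondrial membrane, the step that malonyl-CoA inhibits, and is rebuilt inside the organelle, where repeated rounds of dehydrogenation, hydration, dehydrogenation and thiolysis release acetyl-CoA. Liver turns surplus acetyl-CoA into ketone bodies, while most other tissues take ketone bodies up and oxidize them. Peroxisome proliferator-activated receptors (PPARs), helped by the coactivator PGC-1alpha, drive many of these genes. Cultured endothelial cells are known for relying mostly on glycolysis, and they use fatty acid oxidation mainly for biosynthesis and redox balance.

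RNA counts assigned to genes were 21084749 to 27852630 in R-propranolol tumors and 20599904 to 24949010 in vehicle tumors. R-propranolol replicate 5 stood apart from the other 8 tumors. Skeletal muscle markers (20 genes) summed to 221300 CPM (counts per 1000000 counts of the library, after scaling by the trimmed mean of M values, TMM) in this tumor, 15.8% of its counts, and all 20 were at their highest there. In R-propranolol replicates 1 to 4 their sum was 10.5 to 20.5 CPM, with 1 to 6 of the 20 at 0 counts, against 513 and 500 CPM in vehicle replicates 1 and 3, with none at 0, and 12.8 and 10.9 CPM in vehicle replicates 2 and 4, with 5 and 4 at 0. Adipocyte markers (12 genes) summed to 4521 CPM in R-propranolol replicate 5, to 121 to 202 CPM in R-propranolol replicates 1 to 4 and to 154 to 368 CPM in vehicle tumors. R-propranolol replicate 2 was highest for mural and fibroblast markers (31510 CPM, against 5312 to 15710 CPM in the other 8 tumors) and for endothelial markers (1032 CPM, against 482 to 821 CPM). None of the 12 endothelial markers was at 0 in any tumor. Each comparison is therefore given with all 9 tumors and with the 8 tumors left without R-propranolol replicate 5.

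No member differed between the groups in the test. Of the 38 members, 36 had enough counts to be tested, and Fabp3 and Ppara did not. With all 9 tumors, edgeR's quasi-likelihood test called 0 of the 36 at an adjusted p under 0.05 (background 0% of 13901 genes) and 0 at an unadjusted p under 0.05 (background 2.30%). Without R-propranolol replicate 5 it called 0 at an adjusted p under 0.05 (background 0% of 13743 genes) and 0 at an unadjusted p under 0.05 (background 3.78%). The CPM of the groups overlapped for every tested member, with 0 of 36 apart in 9 tumors (background 1.26%) and 0 of 36 apart in 8 tumors (background 2.86%). Exact two-sided permutation tests of mean log2 CPM gave 1 of the 38 members a p under 0.05 in 9 tumors (Ppara) and 0 of 38 in 8 tumors. Of the genes with enough counts to be tested, 2.43% had such a p in 9 tumors and 2.86% in 8 tumors. Ppara was not among those genes, so no tested member had such a p.

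What differed was the direction of the fold changes with and without a single tumor. With all 9 tumors, 29 of 36 members had a positive log2 fold change (R-propranolol over vehicle), against 54.3% of all genes tested, and their median was 0.57 against 0.03 for all genes. Without R-propranolol replicate 5, 15 of 36 were positive, against 53.7% of all genes, and the median was -0.05 against 0.01. In those 8 tumors the 95% interval of the log2 fold change lay within 0.5 of 0 for 26 of 36 members, against 60.6% of all genes tested, and the median size of the change was 0.09. With 9 tumors, intervals lay within 0.5 of 0 for 2 members. The counts of positive members depend on the scaling. Without TMM, using plain library sizes, 28 of 36 members were positive in 9 tumors (35.8% of all genes) and 9 of 36 in 8 tumors (37.1% of all genes), while the median of all genes moved to -0.10 and -0.04. Relative to the median of all genes, the median of the members was 0.55 with TMM and 0.42 with library size alone in 9 tumors, and -0.06 with either scaling in 8 tumors.

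**Figure D1:**
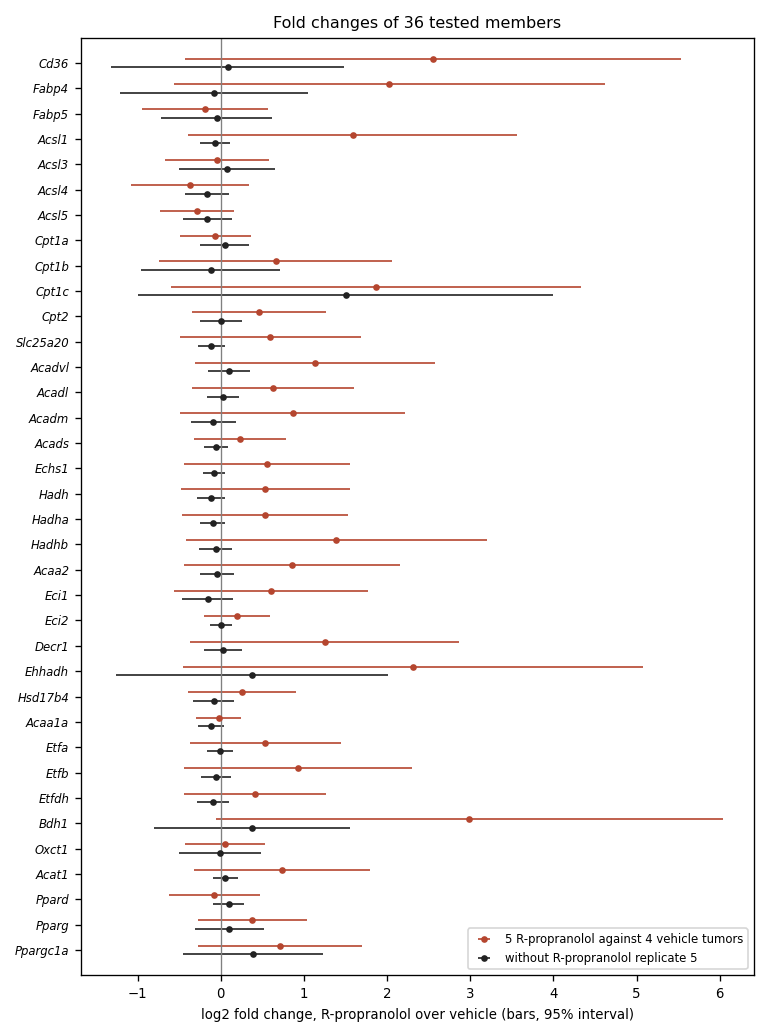
Log2 fold change of R-propranolol over vehicle (horizontal axis) for the 36 tested members, with 95% intervals, in 9 tumors (red) and without R-propranolol replicate 5 (black). With all tumors 29 of 36 points lie right of 0 and intervals are wide. Without that tumor the median is -0.05, while Cpt1c lies at 1.502 with a wide interval and Ppargc1a, Ehhadh and Bdh1 lie at 0.37 to 0.39.

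R-propranolol replicate 5 was the highest of the 9 tumors for 28 of the 36 tested members, against 36.5% of all genes. It was the lowest for 6 (Fabp5, Acsl3, Acsl4, Acsl5, Cpt1a and Ppard), against 42.1% of all genes, and it was inside the range for Cpt1c and Oxct1. For 22 members it was at least 2-fold above each other tumor, against 14.3% of all genes. The ratio of this tumor to the median of the other 8 had a median of 3.65 over the members and ran between 0.318 for Acsl4 and 37.7 for Cd36 among those tested. These members were at their highest in the tumor with the highest muscle and adipocyte markers, and the part of those tissues in the result was not tested. In bulk tissue, fewer cells of a type and less RNA per cell cannot be told apart.

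**Figure D2:**
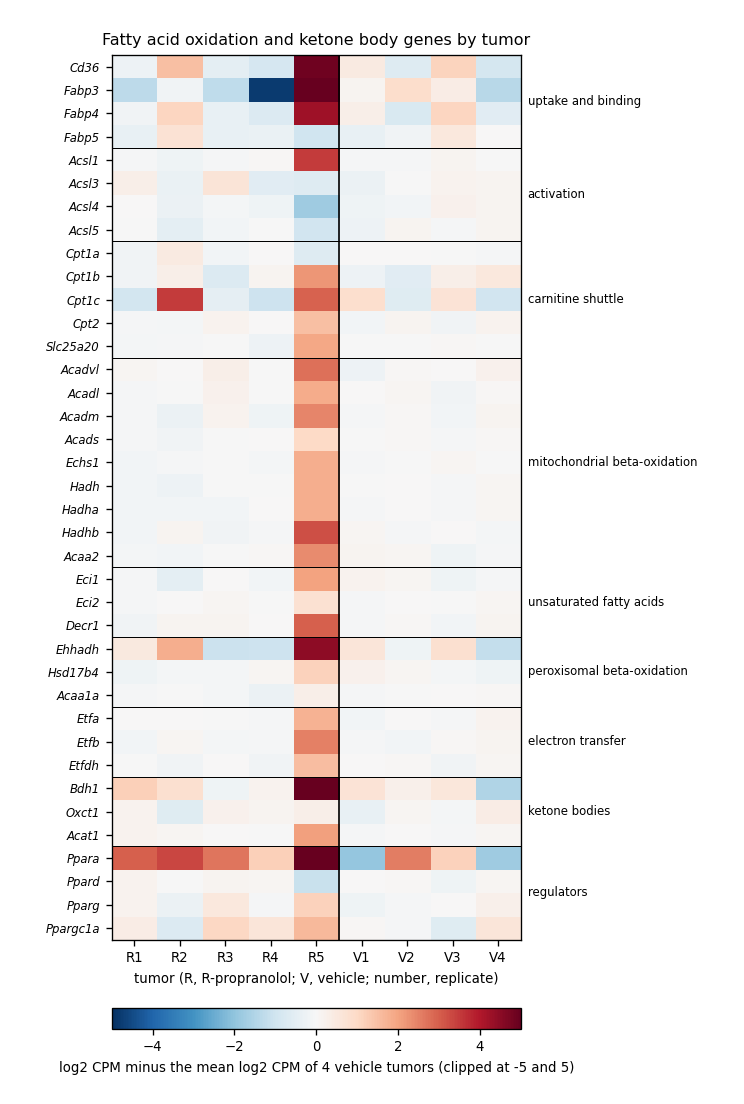
Level of each of the 38 members (grouped by role) in each tumor, as log2 CPM minus the mean log2 CPM of the 4 vehicle tumors, with red for higher and blue for lower. R-propranolol replicate 5 (R5) is red for most genes and blue for 6 tested genes. In columns R1 to R4, values more than 0.3 outside the vehicle range occur for Cd36 and Cpt1a in R2, Acsl3 and Ppargc1a in R3, and the low-level genes Fabp3, Cpt1c, Ehhadh, Bdh1 and Ppara.

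The promoters of 4 members are shown as examples that hold the core letters that nuclear receptors such as the PPARs bind as a repeat, chosen to include members from both ends of the levels in R-propranolol replicate 5. Cd36, Acadvl and Acadm were at their highest in R-propranolol replicate 5, and Cpt1a was at its lowest there. RefSeq gave a promoter (250 bases before to 50 after the start) for 31 of the 38 members. The letters AGGTCA, searched on both strands, occurred in 7 of these 31 (22.6%), against 18.1% of 27025 genes, a share near that of all genes. These 7 were Cd36, Cpt1a, Cpt1c, Acadvl, Acadm, Echs1 and Pparg. The letters GGGCGG, the GC box bound by Sp factors, occurred in 24 of 31 (77.4%), against 38.2% of all genes. The sequences below are from RefSeq on GRCm38.p6, read along the strand of the gene, with AGGTCA or its reverse complement in capitals. A match is a description of the letters and shows no binding.
Cd36 (chr5:17835847-17836146, minus strand): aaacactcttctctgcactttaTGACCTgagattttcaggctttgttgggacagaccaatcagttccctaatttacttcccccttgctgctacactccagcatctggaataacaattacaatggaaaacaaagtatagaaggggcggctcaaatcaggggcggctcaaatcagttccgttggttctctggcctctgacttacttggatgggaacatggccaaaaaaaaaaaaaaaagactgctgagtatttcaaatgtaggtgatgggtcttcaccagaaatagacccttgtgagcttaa
Cpt1a (chr19:3323051-3323350, plus strand): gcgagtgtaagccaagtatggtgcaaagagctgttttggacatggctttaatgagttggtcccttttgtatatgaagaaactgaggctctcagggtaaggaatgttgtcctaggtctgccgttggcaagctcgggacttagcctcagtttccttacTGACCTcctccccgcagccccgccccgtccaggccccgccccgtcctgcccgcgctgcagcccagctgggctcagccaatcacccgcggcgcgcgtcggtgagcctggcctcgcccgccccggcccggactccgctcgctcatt
Acadm (chr3:153944594-153944893, minus strand): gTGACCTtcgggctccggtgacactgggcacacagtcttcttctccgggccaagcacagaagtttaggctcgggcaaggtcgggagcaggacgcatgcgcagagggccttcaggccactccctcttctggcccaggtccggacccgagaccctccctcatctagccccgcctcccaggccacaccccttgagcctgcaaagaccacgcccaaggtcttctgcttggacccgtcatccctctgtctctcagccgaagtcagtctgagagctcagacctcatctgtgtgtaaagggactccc
Acadvl (chr11:70015379-70015678, minus strand): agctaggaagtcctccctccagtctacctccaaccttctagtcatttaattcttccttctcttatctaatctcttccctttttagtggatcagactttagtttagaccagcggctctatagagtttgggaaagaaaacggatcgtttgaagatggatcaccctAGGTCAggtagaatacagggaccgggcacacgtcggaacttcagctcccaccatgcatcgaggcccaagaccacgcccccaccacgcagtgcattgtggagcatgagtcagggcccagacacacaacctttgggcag

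Uptake and binding varied more between tumors than the oxidation enzymes did. Cd36, the membrane receptor that admits long-chain fatty acids, lies on chromosome 5 (17781690 to 17888801, minus strand, GRCm38). It had 23.6, 80.0, 19.7, 15.7 and 815 CPM in R-propranolol replicates 1 to 5, against 37.5, 17.6, 59.6 and 15.2 CPM in vehicle replicates 1 to 4. The highest values were in R-propranolol replicates 5 and 2 and vehicle replicate 3, and the groups overlapped. Its log2 fold change was 2.55 (SE 1.31, adjusted p = 0.876) in 9 tumors and 0.09 (SE 0.61, 95% interval -1.32 to 1.49, adjusted p = 0.9995) in 8 tumors, by edgeR's quasi-likelihood test.

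Fabp4, the carrier abundant in adipocytes and in capillary endothelium (chromosome 3, 10204088 to 10208576, minus strand), followed a like order. It had 58.5, 139, 50.9, 41.6 and 1267 CPM in R-propranolol replicates 1 to 5, against 80.9, 38.8, 140 and 45.0 CPM in vehicle replicates 1 to 4. R-propranolol replicate 2 and vehicle replicates 1 and 3 were the highest tumors after R-propranolol replicate 5, and the groups overlapped. The log2 fold change was 2.03 (SE 1.14, adjusted p = 0.876) in 9 tumors and -0.08 (SE 0.50, 95% interval -1.21 to 1.05, adjusted p = 0.9995) in 8 tumors. Vehicle replicates 1 and 3 were also the vehicle tumors with skeletal muscle markers at 513 and 500 CPM and adipocyte markers at 200 and 368 CPM. R-propranolol replicate 2 had the lowest adipocyte sum of the 9 tumors, at 120.5 CPM (1 of the 12 markers at 0), close to replicate 4 at 121.7 CPM. Its muscle markers were at 12.7 CPM. The adipocyte genes Adipoq and Plin1 were not lowest in replicate 2, at 4.04 and 3.20 CPM. They had 0.25 to 6.04 and 0.43 to 5.15 CPM in R-propranolol replicates 1, 3 and 4. Vehicle tumors had 0.38 to 23.4 and 0.28 to 15.6 CPM. Macrophage markers (10 genes, none at 0 in any tumor) were highest in the same 4 tumors as Cd36 and Fabp4. They were at 4103 and 3574 CPM in R-propranolol replicates 5 and 2 and 2187 and 2024 CPM in vehicle replicates 1 and 3. The other 5 tumors had 775 to 1696 CPM. Endothelial markers were highest in R-propranolol replicates 2 and 5, at 1032 and 821 CPM. They were at 502 to 640 CPM in R-propranolol replicates 1, 3 and 4 and at 482 to 619 CPM in vehicle tumors. Mural and fibroblast markers were highest in R-propranolol replicates 2 and 5 and vehicle replicate 3, at 31510, 15710 and 8580 CPM. The part of these cell types was not tested.

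Fabp3, the carrier of heart and skeletal muscle, was nearly absent outside one library. Its counts were 3, 6, 3, 0 and 4063 in R-propranolol replicates 1 to 5, against 7, 13, 9 and 2 in vehicle replicates 1 to 4. It was left out of the test for low counts, and its exact permutation p was 0.976 in 9 tumors and 0.114 in 8 tumors. Fabp5, the epidermal-type carrier also present in endothelium, was at its lowest in that library. It had 42.2, 89.4, 41.9, 43.2 and 27.5 CPM in R-propranolol replicates 1 to 5, against 41.5, 48.6, 78.4 and 54.8 CPM in vehicle replicates 1 to 4. R-propranolol replicate 2 and vehicle replicate 3 were highest for Fabp5, as they were for Cd36 and Fabp4 once replicate 5 was set aside. Across the 8 tumors the highest value was 2.15 to 5.25 times the lowest for Cd36, Fabp4 and Fabp5.

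The long-chain acyl-CoA synthetases, which trap fatty acids as acyl-CoA, stood in another order in R-propranolol replicate 5. Acsl4, which favors arachidonic acid (chromosome X, 142317993 to 142390535, minus strand), was the most abundant of the 4 per length. It had 236, 189, 218, 201 and 68.5 CPM in R-propranolol replicates 1 to 5, against 202, 213, 273 and 259 CPM in vehicle replicates 1 to 4. R-propranolol replicate 5 was lowest and the other tumors overlapped. edgeR gave a log2 fold change of -0.37 (SE 0.31, adjusted p = 0.876) in 9 tumors and -0.17 (SE 0.12, 95% interval -0.43 to 0.10, adjusted p = 0.9995) in 8 tumors.

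Acsl1, the synthetase that supplies oxidation in muscle and lipid storage in fat, had 36.9 to 44.1 CPM in R-propranolol replicates 1 to 4 and 477 CPM in replicate 5, against 40.8 to 46.4 CPM in vehicle tumors. Acsl3, linked to lipid droplet formation, had 41.4 to 93.9 CPM in R-propranolol replicates 1 to 4 and 39.3 CPM in replicate 5, against 49.4 to 68.7 CPM in vehicle tumors. Acsl5, a mitochondrial and endoplasmic reticulum synthetase, had 95.3 to 132 CPM in R-propranolol replicates 1 to 4 and 69.2 CPM in replicate 5, against 113 to 148 CPM in vehicle tumors. So 3 of the 4 synthetases were lowest, and Acsl1 was highest, in the same library. Without it their log2 fold changes were between -0.17 and 0.08.

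The carnitine shuttle showed the same split between isoforms. Cpt1a, the liver-type carnitine palmitoyltransferase 1 that catalyzes the controlled entry step (chromosome 19, 3322334 to 3385733, plus strand), had 97.3, 151, 101, 111 and 70.5 CPM in R-propranolol replicates 1 to 5, against 113, 114, 111 and 106 CPM in vehicle replicates 1 to 4. R-propranolol replicate 2 was highest and replicate 5 lowest, so that the vehicle tumors lay inside the R-propranolol range. R-propranolol over vehicle, the log2 fold change was -0.06 (SE 0.19, adjusted p = 0.917) in 9 tumors and 0.05 (SE 0.13, 95% interval -0.25 to 0.34, adjusted p = 0.9995) in 8 tumors.

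Cpt1b, the muscle-type isoform (chromosome 15, 89416405 to 89425863, minus strand), was counted at a low level. It had 13, 16, 9, 14 and 36 counts in R-propranolol replicates 1 to 5, against 10, 9, 16 and 16 counts in vehicle replicates 1 to 4. In edgeR the log2 fold change came to 0.66 (SE 0.62, adjusted p = 0.876) in 9 tumors and -0.12 (SE 0.36, 95% interval -0.96 to 0.71, adjusted p = 0.9995) in 8 tumors. Of the 3372 exon bases of Cpt1b in GENCODE M21, 2744 are shared on the same strand with a readthrough gene that joins Chkb and Cpt1b. The table lists that readthrough gene at 0 counts in all 9 tumors and Chkb at 0 to 5, and a read that falls on more than a single gene is left out by HTSeq as ambiguous. The level of Cpt1b is therefore uncertain, also in the tumor with abundant muscle markers.

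Cpt1c, the isoform best known from neurons, had 0.49, 10.7, 0.68, 0.45 and 7.31 CPM in R-propranolol replicates 1 to 5, against 1.68, 0.62, 1.51 and 0.47 CPM in vehicle replicates 1 to 4. In counts these were 14, 267, 19, 11 and 110, against 39, 16, 38 and 10. edgeR put its log2 fold change at 1.87 (SE 1.09, adjusted p = 0.876) in 9 tumors and 1.502 (SE 1.09, 95% interval -0.99 to 3.998, adjusted p = 0.9995) in 8 tumors. Its high values were in R-propranolol replicates 2 and 5. Muscle markers were at 12.7 and 221300 CPM there, and adipocyte markers at 120.5 and 4521 CPM. These tumors were also the highest for endothelial (1032 and 821 CPM) and macrophage markers (3574 and 4103 CPM). The same held for mural and fibroblast (31510 and 15710 CPM) and hepatocyte markers (398 and 659 CPM). The part of these cell types was not tested. Cpt2, which rebuilds acyl-CoA on the matrix side (chromosome 4, 107903981 to 107923610, minus strand), had 33.5, 32.6, 39.8, 35.9 and 101 CPM in R-propranolol replicates 1 to 5, against 31.7, 38.7, 30.9 and 40.1 CPM in vehicle replicates 1 to 4. Its log2 fold change was 0.45 (SE 0.36, adjusted p = 0.876) in 9 tumors and 0.00 (SE 0.11, 95% interval -0.25 to 0.26, adjusted p = 0.9995) in 8 tumors. Slc25a20, the carrier that moves acylcarnitine across the inner membrane, had 20.7 to 24.4 CPM in R-propranolol replicates 1 to 4 and 95.2 CPM in replicate 5, against 24.2 to 25.4 CPM in vehicle tumors. Of the replicates 1 to 4, only replicate 3 reached into the vehicle range (exact permutation p = 0.0571 in 8 tumors, where the smallest possible is 0.0286).

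**Figure D3:**
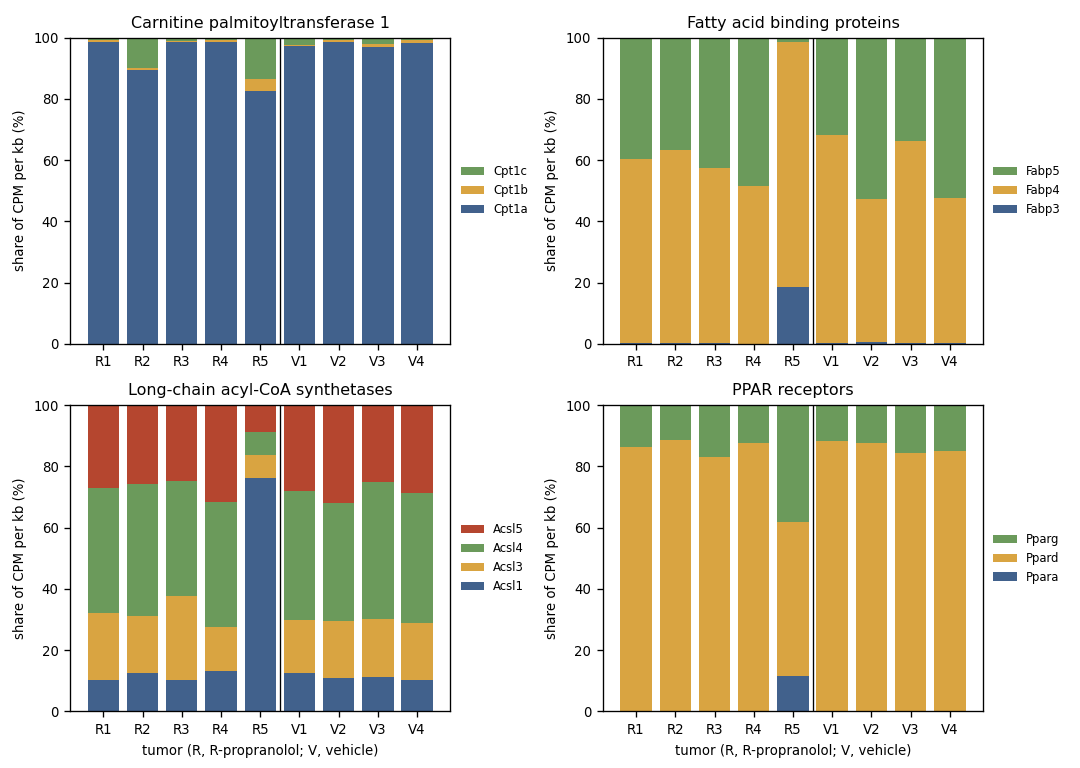
Share of each isoform in the summed CPM per kb of its family (vertical axis, percent) in each tumor, for the carnitine palmitoyltransferases 1, the fatty acid binding proteins, the long-chain acyl-CoA synthetases and the PPARs. R-propranolol replicate 5 (R5) has Acsl1 at 76.3% and Ppard at 50.2%, while the other 8 tumors have Acsl1 at 10.2% to 13.2% and Ppard at 83.0% to 88.5%. The Cpt1 shares use the uncertain level of Cpt1b.

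On the scale of CPM per kb of transcript, the ranges of isoform shares overlapped between the groups, and R-propranolol replicate 5 lay outside them. Cpt1a made up 89.5% to 98.6% of the 3 Cpt1 isoforms in R-propranolol replicates 1 to 4 and 82.4% in replicate 5, against 97.1% to 98.7% in vehicle tumors. These Cpt1 shares use the uncertain level of Cpt1b. If reads of Cpt1b were lost to the readthrough gene, the share of Cpt1a is too high, also in replicate 5. Acsl4 made up 37.5% to 43.1% of the 4 synthetases in R-propranolol replicates 1 to 4 and 7.45% in replicate 5, against 38.7% to 44.8% in vehicle tumors. The larger part in replicate 5 was Acsl1, at 76.3%, against 10.2% to 12.5% in vehicle tumors. Fabp5 made up 36.9% to 48.5% of the 3 carriers in R-propranolol replicates 1 to 4 and 1.57% in replicate 5, against 31.7% to 52.8% in vehicle tumors. Fabp3 was 18.6% of the carriers in replicate 5 and at most 0.653% in any other tumor.

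The 9 enzymes of the mitochondrial beta-oxidation cycle varied little between tumors other than R-propranolol replicate 5. Their summed level was 571, 557, 616 and 591 CPM in R-propranolol replicates 1 to 4 and 2652 CPM in replicate 5, against 588, 617, 573 and 632 CPM in vehicle replicates 1 to 4. The mean was 584 ± 25.7 CPM in R-propranolol replicates 1 to 4 and 602 ± 26.8 CPM in vehicle tumors (SD, n = 4 each). All 9 enzymes had a positive log2 fold change in 9 tumors (0.23 to 1.39) and 2 of 9 did in 8 tumors (-0.11 to 0.10). In 8 tumors all 9 intervals lay within 0.5 of 0, reaching 0.13 to 0.27 to either side of the estimate, and each enzyme varied by 1.16 to 1.49 times between its lowest and highest tumor.

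**Figure D4:**
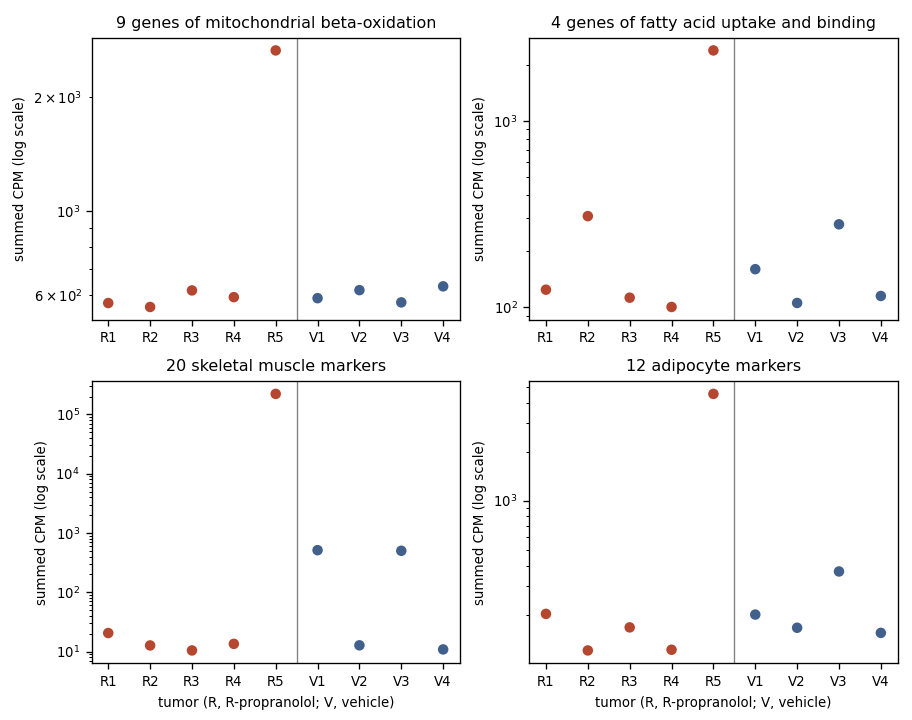
Summed CPM (vertical axes, log scale) in each tumor of the 9 mitochondrial beta-oxidation genes, the 4 uptake and binding genes, 20 skeletal muscle markers and 12 adipocyte markers, with R-propranolol tumors (red) left of vehicle tumors (blue). R-propranolol replicate 5 is highest in all 4 panels, at 2652 CPM for beta-oxidation and 221300 CPM for muscle markers. The other 8 tumors lie at 557 to 632 CPM for beta-oxidation.

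Acadl, the long-chain acyl-CoA dehydrogenase (chromosome 1, 66830839 to 66863277, minus strand), was the most abundant of the cycle per length. It had 84.3, 86.1, 101, 86.4 and 320 CPM in R-propranolol replicates 1 to 5, against 87.5, 94.6, 78.2 and 90.6 CPM in vehicle replicates 1 to 4. The 8 tumors overlapped throughout. The log2 fold change was 0.63 (SE 0.43, adjusted p = 0.876) in 9 tumors and 0.03 (SE 0.08, 95% interval -0.17 to 0.22, adjusted p = 0.9995) in 8 tumors.

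Acadvl, the membrane-bound very-long-chain dehydrogenase, had 61.4 to 76.1 CPM in R-propranolol replicates 1 to 4 and 415 CPM in replicate 5, against 51.2 to 70.5 CPM in vehicle tumors. Of its 2686 exon bases, 1151 are shared with Dvl2 on the other strand, and the strand setting of the counting is not given, so part of its counts may belong to Dvl2. Acadm, the medium-chain dehydrogenase, had 46.0 to 64.3 CPM in R-propranolol replicates 1 to 4 and 305 CPM in replicate 5, against 51.2 to 63.1 CPM in vehicle tumors. Acads, which acts on short chains, had 47.5 to 54.3 CPM in R-propranolol replicates 1 to 4 and 107 CPM in replicate 5, against 50.6 to 55.1 CPM in vehicle tumors. Among the dehydrogenases the ratio of replicate 5 to the median of the other tumors was largest for Acadvl, at 6.61, and smallest for Acads, at 2.04.

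Echs1, the short-chain enoyl-CoA hydratase, had 43.1 to 46.7 CPM in R-propranolol replicates 1 to 4 and 167 CPM in replicate 5, against 45.7 to 49.9 CPM in vehicle tumors. Hadh, the hydroxyacyl-CoA dehydrogenase for shorter chains, had 57.0 to 67.4 CPM in R-propranolol replicates 1 to 4 and 242 CPM in replicate 5, against 65.0 to 73.0 CPM in vehicle tumors. Acaa2, the mitochondrial thiolase, had 39.3 to 44.8 CPM in R-propranolol replicates 1 to 4 and 222 CPM in replicate 5, against 37.3 to 47.2 CPM in vehicle tumors. All of these ranges overlapped once replicate 5 was set aside.

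Hadha and Hadhb encode the subunits of the trifunctional protein, which carries out the last steps of the cycle for long chains and works as a complex of both. Hadha had 131 to 147 CPM in R-propranolol replicates 1 to 4 and 505 CPM in replicate 5, against 138 to 155 CPM in vehicle tumors. Hadhb had 34.7 to 43.5 CPM in R-propranolol replicates 1 to 4 and 367 CPM in replicate 5, against 37.1 to 42.7 CPM in vehicle tumors. In replicate 5 the level of Hadhb was 9.74 times, and that of Hadha 3.65 times, the median of the other 8 tumors. The subunits thus stood at unequal distances from the other tumors in that library.

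Further enzymes prepare unsaturated chains for the cycle. Eci2, an enoyl-CoA isomerase of mitochondria and peroxisomes (chromosome 13, 34977748 to 35027096, minus strand), varied least of all tested members over the 8 tumors. It had 56.8, 58.7, 62.3, 58.5 and 99.7 CPM in R-propranolol replicates 1 to 5, against 55.9, 59.1, 57.3 and 62.4 CPM in vehicle replicates 1 to 4. edgeR gave a log2 fold change of 0.20 (SE 0.18, adjusted p = 0.876) in 9 tumors and 0.01 (SE 0.06, 95% interval -0.12 to 0.14, adjusted p = 0.9995) in 8 tumors. Eci1, the mitochondrial isomerase, had 21.9 to 31.0 CPM in R-propranolol replicates 1 to 4 and 125 CPM in replicate 5, against 26.9 to 35.1 CPM in vehicle tumors. Decr1, the dienoyl-CoA reductase for polyunsaturated chains, had 20.8 to 26.1 CPM in R-propranolol replicates 1 to 4 and 186 CPM in replicate 5, against 21.3 to 26.0 CPM in vehicle tumors.

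In the peroxisome, where very long chains are shortened, the members differed widely in level per length. Acaa1a, the peroxisomal thiolase, was the most abundant per length and had 56.2, 56.8, 55.0, 47.1 and 70.7 CPM in R-propranolol replicates 1 to 5, against 55.9, 58.1, 58.8 and 59.9 CPM in vehicle replicates 1 to 4. Replicate 5 was the highest tumor with TMM scaling and inside the range with library size alone. R-propranolol over vehicle, the log2 fold change was -0.03 (SE 0.12, adjusted p = 0.947) in 9 tumors and -0.12 (SE 0.07, 95% interval -0.27 to 0.04, adjusted p = 0.9995) in 8 tumors. A near-identical copy, Acaa1b, may share reads with it. Hsd17b4, the bifunctional enzyme for branched and very long chains, had 58.2 to 72.0 CPM in R-propranolol replicates 1 to 4 and 149 CPM in replicate 5, against 58.4 to 78.4 CPM in vehicle tumors. Ehhadh, the bifunctional enzyme induced through PPARalpha in liver, had 0.36 to 2.76 CPM in R-propranolol replicates 1 to 4 and 17.4 CPM in replicate 5, against 0.33 to 1.35 CPM in vehicle tumors.

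The electron transfer members pass electrons of the acyl-CoA dehydrogenases to ubiquinone. Etfa, the alpha subunit of the electron transfer flavoprotein (chromosome 9, 55454508 to 55512243, minus strand), had 83.9, 85.7, 83.5, 79.7 and 276 CPM in R-propranolol replicates 1 to 5, against 77.0, 83.7, 80.5 and 94.1 CPM in vehicle replicates 1 to 4. Its log2 fold change was 0.54 (SE 0.40, adjusted p = 0.876) in 9 tumors and -0.01 (SE 0.07, 95% interval -0.17 to 0.15, adjusted p = 0.9995) in 8 tumors. Etfb, the beta subunit, had 38.5 to 44.9 CPM in R-propranolol replicates 1 to 4 and 241 CPM in replicate 5, against 38.9 to 46.4 CPM in vehicle tumors, and it shares 617 of 1164 exon bases with a same-strand gene that the table does not list by that name. Etfdh, the dehydrogenase that hands the electrons on, had 40.2 to 46.6 CPM in R-propranolol replicates 1 to 4 and 134 CPM in replicate 5, against 40.8 to 49.0 CPM in vehicle tumors. All 3 were 2.92 to 5.92 times the median of the other tumors in replicate 5.

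Ketone body genes held the member with the highest mean level per length outside R-propranolol replicate 5, and a scarce one. Oxct1, the transferase by which tissues outside liver use ketone bodies (chromosome 15, 4026383 to 4155344, plus strand), had 263, 150, 271, 251 and 282 CPM in R-propranolol replicates 1 to 5, against 181, 248, 215 and 298 CPM in vehicle replicates 1 to 4. R-propranolol replicate 2 was lowest, vehicle replicate 4 highest and replicate 5 inside the range. In edgeR the log2 fold change came to 0.05 (SE 0.21, adjusted p = 0.944) in 9 tumors and -0.01 (SE 0.21, 95% interval -0.50 to 0.48, adjusted p = 0.9995) in 8 tumors. On the scale of CPM per kb, Oxct1 was at 88.8 ± 21.4 in R-propranolol replicates 1 to 4 and 89.4 ± 18.9 in vehicle tumors (SD, n = 4 each), the highest mean of the 38 members in each of these groups. The next levels per kb were Fabp4 (80.8 ± 49.9 in R-propranolol replicates 1 to 4 and 85.1 ± 51.9 in vehicle tumors) and Ppard (79.2 ± 4.12 and 74.1 ± 6.79), and these neighbors did not differ beyond their spread.

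Bdh1, the mitochondrial 3-hydroxybutyrate dehydrogenase (chromosome 16, 31422280 to 31458901, plus strand), had the largest fold change of the tested members and the smallest p by edgeR in 9 tumors. Its counts were 19, 13, 7, 8 and 182 in R-propranolol replicates 1 to 5, against 11, 9, 11 and 2 in vehicle replicates 1 to 4. The groups overlapped, and R-propranolol replicate 5 stood far above all other tumors. The log2 fold change was 2.99 (SE 1.35, adjusted p = 0.876, edgeR's quasi-likelihood test) in 9 tumors and 0.37 (SE 0.51, 95% interval -0.80 to 1.55, adjusted p = 0.9995) in 8 tumors, with exact permutation p = 0.325 and p = 0.486. Leaving out any of R-propranolol replicates 1 to 4 brought its unadjusted p under 0.05 by edgeR, with adjusted p values of 0.660 to 0.907. Acat1, the thiolase that serves both ketone use and ketogenesis, had 59.8 to 68.5 CPM in R-propranolol replicates 1 to 4 and 256 CPM in replicate 5, against 58.3 to 65.1 CPM in vehicle tumors.

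Among the regulators, Ppard was the main PPAR. Ppard, the broadly expressed receptor (chromosome 17, 28232700 to 28301474, plus strand), had 132.8, 117.7, 129.9, 125.4 and 54.6 CPM in R-propranolol replicates 1 to 5, against 121.2, 124.3, 102.4 and 125.7 CPM in vehicle replicates 1 to 4. Replicate 5 was lowest and the remaining tumors overlapped. edgeR gave a log2 fold change of -0.08 (SE 0.24, adjusted p = 0.919) in 9 tumors and 0.09 (SE 0.08, 95% interval -0.09 to 0.28, adjusted p = 0.9995) in 8 tumors. Per kb, Ppard made up 83.0% to 88.5% of the 3 receptors in R-propranolol replicates 1 to 4 and 50.2% in replicate 5, against 84.4% to 88.3% in vehicle tumors.

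Pparg, the adipocyte receptor, had 17.2 to 30.3 CPM in R-propranolol replicates 1 to 4 and 47.5 CPM in replicate 5, against 18.3 to 25.5 CPM in vehicle tumors. Ppara, the receptor of liver, heart and muscle, had 9, 10, 7, 2 and 301 counts in R-propranolol replicates 1 to 5, against 0, 6, 2 and 0 counts in vehicle replicates 1 to 4. Each count outside replicate 5 was 10 or less, and the groups overlapped between 2 and 6 counts. The exact two-sided permutation p was 0.0476 in 9 tumors and 0.0571 in 8 tumors, as a single value among 38 looked at, and the low counts kept Ppara out of the edgeR test. The liver gene Alb had 54.8, 26.5, 29.5, 12.9 and 20.8 CPM in R-propranolol replicates 1 to 5, against 0.99, 22.7, 0.60 and 1.42 CPM in vehicle replicates 1 to 4, and vehicle replicate 2, the highest vehicle tumor for Alb, was also the highest for Ppara. Hepatocyte markers (12 genes) summed to 308, 398, 152, 163 and 659 CPM in R-propranolol replicates 1 to 5, against 216, 198, 206 and 116 CPM in vehicle replicates 1 to 4. By this sum, unlike by Alb, vehicle replicate 2 was not the highest vehicle tumor. All 10 of the markers tested had positive log2 fold changes in both fits. At most 2 of the 12 were at 0 in any tumor, and the part of liver RNA in the values of Ppara was not tested.

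Ppargc1a, which encodes PGC-1alpha (chromosome 5, 51454250 to 51567726, minus strand), had 12.5, 5.88, 19.4, 14.4 and 29.6 CPM in R-propranolol replicates 1 to 5, against 10.03, 9.13, 6.35 and 14.4 CPM in vehicle replicates 1 to 4. R-propranolol replicates 5 and 3 were highest and R-propranolol replicate 2 was lowest, so the groups overlapped. R-propranolol over vehicle, the log2 fold change was 0.71 (SE 0.44, adjusted p = 0.876, edgeR) in 9 tumors and 0.39 (SE 0.37, 95% interval -0.45 to 1.23, adjusted p = 0.9995) in 8 tumors, with exact permutation p = 0.278 and p = 0.486. Without R-propranolol replicate 2 it was 0.93 (adjusted p = 0.907, edgeR), and without replicates 2 and 5 it was 0.63 (adjusted p = 0.944, edgeR), in both cases with an unadjusted p under 0.05.

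A wider list of 64 genes of the same pathways was read beside the members. Of these, 50 were tested in 9 tumors, where 0 passed an adjusted p of 0.05, 4 were higher and 0 lower at an unadjusted p under 0.05 (2.30% of all genes passed in either direction). In 8 tumors 49 were tested, 0 passed an adjusted p of 0.05, and 1 was higher and 1 was lower at an unadjusted p under 0.05 (3.78% of all genes).

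Acot2, a mitochondrial acyl-CoA thioesterase and PPARalpha target in liver and heart, was the gene of this list that was higher at an unadjusted p under 0.05 in both fits. It had 4.27, 7.61, 5.53, 5.62 and 21.8 CPM in R-propranolol replicates 1 to 5, against 3.92, 4.01, 4.68 and 2.94 CPM in vehicle replicates 1 to 4. Only R-propranolol replicate 1 reached into the vehicle range. The log2 fold change was 1.20 (SE 0.50, adjusted p = 0.876, edgeR) in 9 tumors and 0.56 (SE 0.22, adjusted p = 0.9995) in 8 tumors, with exact permutation p = 0.0397 and p = 0.0571. Slc27a6, a fatty acid transport protein of heart, was lower at an unadjusted p under 0.05 by edgeR in the 8 tumors. Its counts were low, at 29, 32, 20, 38 and 30 in R-propranolol replicates 1 to 5. Vehicle replicates 1 to 4 had 51, 75, 40 and 29 counts, and the groups overlapped. Its log2 fold change was -0.62 (SE 0.36, adjusted p = 0.876, edgeR) in 9 tumors and -0.82 (SE 0.34, adjusted p = 0.9995) in 8 tumors. The exact permutation test gave p = 0.111 and p = 0.0571. In 9 tumors it was also lower at an unadjusted p under 0.05 with limma-voom and quality weights (log2 fold change -1.04, adjusted p = 0.800) and with library size alone (-0.79, adjusted p = 0.831).

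The remaining 3 genes at an unadjusted p under 0.05 in 9 tumors lost it without R-propranolol replicate 5. Acad12, an acyl-CoA dehydrogenase family member, had a log2 fold change of 3.43 (SE 1.40, adjusted p = 0.876, edgeR) in 9 tumors and 0.50 (SE 0.37) in 8 tumors. Pdk4, the pyruvate dehydrogenase kinase that spares glucose when fat is burned, had 6.29 (SE 2.69, adjusted p = 0.876, edgeR) in 9 tumors and -0.26 (SE 1.02) in 8 tumors. Gpihbp1, which carries lipoprotein lipase across capillary endothelium, had 1.48 (SE 0.61, adjusted p = 0.876, edgeR) in 9 tumors and 1.17 (SE 0.58) in 8 tumors. Unlike Acad12 and Pdk4, Gpihbp1 was highest in R-propranolol replicate 2. It had 4.9, 25.4, 7.9, 3.4 and 22.2 CPM in R-propranolol replicates 1 to 5, against 4.6, 3.3, 5.0 and 5.5 CPM in vehicle replicates 1 to 4.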

How the data were processed

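RNA of 5 R-propranolol and 4 vehicle tumors was sequenced by the authors as pairs of 150-base reads from NEBNext Ultra libraries. The authors aligned the reads to mm10 with STAR and deposited raw HTSeq counts per gene, without normalization. GenomeStudio, FastQC and edgeR are also named in the submitters' processing notes. Tool versions, gene annotation and strandedness of the counting were not given in the sources used here. Groups follow the labels. The HTSeq summary lines stayed out of library sizes. They held 13.4% to 15.4% of the listed reads as lying in no gene, 1.81% to 1.98% as ambiguous and, as aligned to more than a single place, 7.86% in R-propranolol replicate 5 and 3.46% to 3.99% in the other 8 tumors.

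Counts were filtered with filterByExpr (minimum count 10, minimum total 15), scaled by TMM and compared with the quasi-likelihood test of edgeR 4.0.16 in R 4.3.3, with Benjamini-Hochberg adjustment over all genes tested. The fit was repeated without R-propranolol replicate 5. SE is the fold change divided by the square root of F. CPM used TMM-scaled library sizes, and CPM per kb used the median protein-coding transcript length of GENCODE M21, whose coordinates on GRCm38 are given. Exact permutation tests of mean log2 CPM (prior count 0.25) ran over all assignments of tumors to groups, with smallest possible p values of 0.00794 for 9 tumors and 0.0286 for 8. The edgeR fit was tested on simulated data. Alternatives were DESeq2 1.42.0 (size factors and test), limma 3.58.1 (voom with quality weights), library size alone, other filters, leaving out tumors, a block by replicate number, and vehicle replicates 1 and 2 added together.

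The members, gene lists and tests were chosen with earlier results of these data known. Members described in full are those with an unadjusted p under 0.05 or separate groups in either fit (none), the most abundant of each role per kb, and Cpt1a, Cpt1b, Cd36, Fabp4, Oxct1, Bdh1 and Ppargc1a. From the wider list, genes with an unadjusted p under 0.05 plus Pdk4 are named (some items of this list are not reported here), and genes named in the closing observations were picked after their values were seen.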

Additional observations from a re-analysis of the deposited data

Results flagged for a closer look

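In the R-propranolol group, 26 of 43 genes looked at had a tumor far from the other 4 by Dixon's criterion on log2 CPM, in which the gap to the nearest tumor is divided by the range of the group. In the vehicle group 0 did. Chance gives about 1 such group in 20. Of all 13901 genes tested, however, 30.8% had such a tumor in the R-propranolol group, 29.4% with replicate 5 as the far tumor and 11.8% with replicate 5 at the high end, against 5.44% with any far tumor in the vehicle group. R-propranolol replicate 5 was the far tumor for 25 of the 26, at the high end for 23.

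Among genes of uptake, activation and the carnitine shuttle, the gap took 0.93 of the range for Acsl1, 0.892 for Slc25a20 and 0.823 for Cpt2, all with replicate 5 highest. Acsl4 had 0.82 with replicate 5 lowest. In the mitochondrial cycle, replicate 5 was highest with 0.941 for Echs1, 0.924 for Acaa2, 0.911 for Hadha, 0.905 for Hadhb, 0.887 for Acadvl, 0.884 for Hadh, 0.866 for Acadl, 0.836 for Acads and 0.822 for Acadm. Genes for unsaturated chains gave 0.896 for Decr1, 0.835 for Eci2 and 0.802 for Eci1, and the peroxisomal gene Hsd17b4 gave 0.774, each with replicate 5 highest.

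Electron transfer genes gave 0.941 for Etfa, 0.917 for Etfb and 0.879 for Etfdh, with replicate 5 highest. Acat1 had 0.907, Bdh1 had 0.75, Ppara had 0.723 and Acad12 had 0.797, again with replicate 5 highest. Ppard had 0.864 with replicate 5 lowest. The exception was Oxct1, with 0.816 and replicate 2 lowest.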

How the results depend on the processing

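No alternative put a member under an adjusted p of 0.05. Nor did any other gene reach it, except for 12 with DESeq2 in the 8 tumors, none of them a member. Counts of all genes at an unadjusted p under 0.05 were 320 in 9 tumors, 831 with DESeq2, 838 with limma-voom and quality weights, 626 without a filter, 100 with vehicle replicates 1 and 2 summed and 103 (without vehicle replicate 2) to 737 (without R-propranolol replicate 4) with 1 tumor left out. In 8 tumors the count was 519, and 861 with limma-voom and quality weights. Members at an unadjusted p under 0.05 were 1 with DESeq2 (Ehhadh), 2 without a filter (Fabp3 and Ppara) and 0 to 2 with 1 tumor left out (Bdh1 and Ppargc1a). In 8 tumors they were 1 with library size alone (Acaa1a) and 1 without R-propranolol replicates 2 and 5 (Ppargc1a). The edgeR fits of 9 and 8 tumors described above called 2.30% and 3.78% of all genes. Shares for the other settings are not given, so these members are named without being read as results. The cause of the shifts between settings was not tested.

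With 1 tumor left out, members with a positive log2 fold change were 15 to 31 and their median was -0.046 to 0.76, the low end being without R-propranolol replicate 5. Limma-voom with quality weights gave 11 and -0.046. In 8 tumors 9 were positive with library size alone (median -0.11) and 9 with limma-voom and quality weights. Deviations of same-numbered tumors from their group means had correlations of 0.0301, 0.00564, -0.574 and 0.40 for replicates 1 to 4. So few values of mixed sign cannot decide whether same-numbered tumors belong together. The main fit used no pairing. A replicate block, in which R-propranolol replicate 5 has no partner, gave 14 positive members, a median of -0.054 and 283 genes at an unadjusted p under 0.05.

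Of 434 values of single genes under the alternatives, 392 kept their direction and side of the threshold and 42 had the other sign, none of them called. With the replicate block these log2 fold changes were -0.065 for Cd36, -0.088 for Fabp4, 0.031 for Cpt1a, -0.10 for Cpt1b, -0.0071 for Etfa, -0.022 for Oxct1, 0.098 for Ppard and -0.58 for Pdk4. With limma-voom and quality weights they were -0.14 for Cd36, -0.047 for Fabp4, -0.028 for Cpt2, -0.0155 for Acadl, -0.0057 for Eci2, 0.11 for Ppard and -1.13 for Pdk4. Library size alone gave -0.085 for Oxct1. With 1 tumor left out, values were -0.081 to 2.50 for Fabp4, -0.22 to 0.049 for Cpt1a, -0.12 to 0.93 for Cpt1b, -0.12 to 0.057 for Acaa1a, -0.013 to 0.71 for Etfa, -0.042 to 0.18 for Oxct1, -0.15 to 0.093 for Ppard and -0.26 to 6.76 for Pdk4.

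In 8 tumors, library size alone gave -0.0075 for Cd36, -0.013 for Cpt1a, -0.050 for Cpt2, -0.030 for Acadl and -0.047 for Eci2. Limma-voom with quality weights, chosen for the 8 tumors after seeing the data as were the next settings, gave -0.15 for Cd36, -0.12 for Cpt1a, -0.039 for Cpt2, -0.028 for Acadl, -0.0105 for Eci2 and 0.12 for Oxct1. Also without vehicle replicate 2, Cd36 had -0.13 and Oxct1 0.018. Also without R-propranolol replicate 2, Cd36 had -0.73, Cpt1a -0.10 and Oxct1 0.16.

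The limits are the small groups, 1 library per tumor and unknown strand handling where exons overlap. Counting error also limits members under about 20 counts. These were Cpt1b, Bdh1, Fabp3 and Ppara outside R-propranolol replicate 5, and Cpt1c and Ehhadh in several tumors. The 8-tumor comparison leaves out a tumor chosen after its values were seen, so its narrow intervals describe the remaining tumors only.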

Other observations

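Among the 50 tested genes of the wider pathway list, 35 peaked in R-propranolol replicate 5, 7 were at their lowest there and 8 lay inside the range. Over all genes, 36.5% were highest and 42.1% lowest there. With library size alone, 27 of the 50 peaked there and 10 were lowest, against 3146 and 7979 of all 13901 genes tested. Among the lower ones, Bdh2, a cytosolic hydroxybutyrate dehydrogenase, was at 0.221 of the median of the other 8 tumors, and Plin2, a lipid droplet coat protein, at 0.385. The genes named here were picked after their values were seen. In lipolysis and lipoprotein hydrolysis, Lpl, the lipase that frees fatty acids from lipoproteins in capillaries, had 76.0 to 131 CPM in R-propranolol replicates 1 to 4 and 1504 CPM in replicate 5, against 75.0 to 142 CPM in vehicle tumors. Pnpla2, which starts the breakdown of stored fat, had 31.2 to 38.3 CPM in R-propranolol replicates 1 to 4 and 527 CPM in replicate 5, against 27.9 to 48.6 CPM in vehicle tumors. The malonyl-CoA genes, which set the brake on Cpt1, followed them on both sides of the reaction. Acacb, which makes malonyl-CoA at the mitochondrion, had 16.7 to 29.5 CPM in R-propranolol replicates 1 to 4 and 377 CPM in replicate 5, against 17.6 to 26.1 CPM in vehicle tumors. Mlycd, which removes it, had 4.85 to 8.77 CPM in R-propranolol replicates 1 to 4 and 108 CPM in replicate 5, against 5.60 to 6.83 CPM in vehicle tumors.

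Acad10, an acyl-CoA dehydrogenase family member, was the only tested gene of the wider list whose groups did not overlap in TMM-scaled CPM, in 9 tumors and in 8. With library size alone the groups overlapped. R-propranolol replicates 1 and 3 (68 of 26930159 and 69 of 27852630 counts) then lay below vehicle replicate 1 (54 of 21185689 counts). It had 2.40, 4.56, 2.48, 2.50 and 13.0 CPM in R-propranolol replicates 1 to 5, against 2.32, 2.00, 2.06 and 1.90 CPM in vehicle replicates 1 to 4. Its log2 fold change was 1.26 (SE 0.56, adjusted p = 0.876, edgeR) in 9 tumors and 0.52 (SE 0.26, adjusted p = 0.9995) in 8 tumors. The exact permutation test gave p = 0.0714 and p = 0.0286. The second is the smallest that 8 tumors can give, and it follows from the lack of overlap by which the gene was picked. Of all genes, 1.26% did not overlap in 9 tumors and 2.86% in 8 tumors.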
